A study of Mus musculus with 10 samples.

Results

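The genes described here are 10 genes that neutrophils, the short-lived phagocytes that bone marrow makes in large numbers, use to make the contents of their granules and cytosol. They were chosen by name, as Mpo, Elane and Prtn3 of the primary granules, Ltf, Camp and Ngp of the secondary granules, the late genes S100a8 and S100a9, and Lcn2 and Retnlg, which the grouping leaves without a stage. All 10 were found among the 54532 genes of the count files, and all 10 were among the 18329 genes with enough reads to be tested. RNA came from the whole cochlea of 12-month-old mice of the mtKeima strain, 5 of them NR-treated and 5 non-treated, and was sequenced as 1 library per mouse. The NR-treated mice were given nicotinamide riboside (NR), a precursor of NAD+, in their drinking water at 7 mg/ml (24 mM) from 2 months of age for 10 months, and the non-treated mice, labelled Vehicle, drank regular water. Both groups carry the mtKeima transgene, a fluorescent reporter of mitochondria that are taken up by lysosomes, on a mixed genetic background, and per the study's methods all mice were wild type for the cadherin23 AHL allele and for the Nnt mutation of C57BL/6J. The study asked which genes long-term NR changes in the aging cochlea.

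Granule proteins are made in a fixed order while a neutrophil matures in the marrow. Promyelocytes make the proteins of primary (azurophil) granules, myelocytes and metamyelocytes make those of secondary (specific) granules, and the most mature cells hold large amounts of S100A8 and S100A9 in the cytosol. Circulating neutrophils keep the finished proteins but have little of the mRNA of the primary granule genes, so the mRNA of those genes is known mainly from marrow. The transcription factors C/EBP and PU.1 are known regulators of these genes.

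The 10 genes lie on 6 chromosomes of mm10. Elane (chr10:79886247-79888215) lies 3.07 kb from Prtn3 (chr10:79874476-79883174), and S100a8 (chr3:90668978-90670035) lies 22.6 kb from S100a9 (chr3:90692632-90695721). Camp (chr9:109847379-109849617), Ngp (chr9:110419747-110423012) and Ltf (chr9:111019271-111042767) follow each other on chromosome 9 with gaps of 570 kb and 596 kb. Mpo (chr11:87793581-87804413), Lcn2 (chr2:32384633-32388252) and Retnlg (chr16:48872621-48874496) stand apart from the rest. Sequences just before 6 of the genes, from 3 stages, are shown as examples, although all 10 members varied together across mice, as described below. The sequences are RefSeq promoter sequence of build GRCm38.p6, on the strand of the gene, 5′ to 3′. Capitals mark each match on either strand to a C/EBP motif (TTNNGNAAT, TTNNGNAAG, TGNNGNAAT or TGNNGNAAG) or to the PU.1 core GAGGAA. The sequences end just before the gene start given with the counts, which for most of them lies upstream of the RefSeq start. Matches nearer the RefSeq start are therefore left out, such as C/EBP matches at -61 in Elane and at -141 and -125 in Camp. Of the genes not shown, Mpo held matches in the 47 bases taken, and Retnlg held none in the 120 bases taken.

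Elane, chr10:79886127-79886246, plus strand: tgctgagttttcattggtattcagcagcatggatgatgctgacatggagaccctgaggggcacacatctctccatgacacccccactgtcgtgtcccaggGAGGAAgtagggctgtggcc
Ltf, chr9:111019151-111019270, plus strand: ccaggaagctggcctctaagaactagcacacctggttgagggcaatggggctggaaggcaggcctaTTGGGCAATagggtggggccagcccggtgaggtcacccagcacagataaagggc
Camp, chr9:109849618-109849706, minus strand: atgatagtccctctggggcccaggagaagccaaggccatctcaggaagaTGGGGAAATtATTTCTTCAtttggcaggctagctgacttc
Ngp, chr9:110419627-110419746, plus strand: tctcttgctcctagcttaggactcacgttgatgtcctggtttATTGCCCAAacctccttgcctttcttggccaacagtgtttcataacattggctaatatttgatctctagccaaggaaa
S100a8, chr3:90668858-90668977, plus strand: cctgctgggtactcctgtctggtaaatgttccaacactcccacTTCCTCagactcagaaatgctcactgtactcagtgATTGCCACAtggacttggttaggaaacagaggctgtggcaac
S100a9, chr3:90695722-90695841, minus strand: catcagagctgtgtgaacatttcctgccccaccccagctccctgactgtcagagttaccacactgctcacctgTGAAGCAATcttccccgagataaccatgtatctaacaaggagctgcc

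In the full RefSeq promoter of each gene, from 250 bases before to 50 bases after its start, 9 of the 10 members held a C/EBP motif, Prtn3 being the exception, and 45.445% of all 32851 promoters of that length held it. The PU.1 core was found in 6 of the 10 members and in 28.276% of all promoters. None of the matches to one motif overlapped a match to the other (0 sites). A match is a run of letters and was not tested as a binding site.

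Between 17060379 and 24419230 reads per mouse were counted on genes. Levels are given as CPM, the usual scaling of counts by library size, with the TMM factors of edgeR, and the members had between 599 reads, for Prtn3, and 55419 reads, for Ltf, in a library, so that counting error is small beside the spread between mice. All 16 listed cochlear genes were detected and tested, and their summed level was 4160 to 6240 CPM in NR-treated and 4540 to 8330 CPM in non-treated mice. Genes of blood-forming cells and bone were also detected in every mouse, with erythroid genes summing to 4200 to 18200 CPM, B lineage genes to 73.3 to 179 CPM and bone genes to 390 to 2300 CPM. The labels give the mice as female and the methods as male; the Y-linked gene Ddx3y had 64.5 to 85.0 CPM and Xist at most 0.405 CPM in all 10 libraries, and of the 4 tested sex genes only Ddx3y was lower in NR-treated mice at an unadjusted p of 0.05 (adjusted p = 0.476, edgeR). In bulk RNA such as this, fewer cells of a type and less RNA per cell cannot be told apart.

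Together the 10 members took between 0.151% and 0.567% of the counts of a mouse. Their order was compared per length, as RPKM, which is the CPM divided by the gene's length in kilobases. The length used is the one deposited with the counts, for example 2623 bases for Lcn2 and 984 bases for Elane. As annotated there, Lcn2 and Prtn3 begin upstream of their RefSeq starts. Whether these lengths match the transcripts present was not tested, and the order depends on them. S100a9 was the most abundant, with a mean of 1536 RPKM (SD 580, n = 10), and S100a8, its partner in the calcium-binding protein calprotectin, followed with 727.1 RPKM (SD 266). S100a9 exceeded S100a8 in all 10 mice, by 2.00 to 2.19 times. Camp and Ngp came next, with 568.8 and 564.4 RPKM, and could not be ordered, since Camp was above Ngp in 7 of 10 mice. Ltf had 210.5 RPKM (SD 197), with 721 RPKM in its highest mouse, and Retnlg had 136.5 RPKM and lay below Ltf in 8 of 10 mice. Elane at 89.21 RPKM and Lcn2 at 78.64 RPKM also changed places between mice, with Elane higher in 7 of 10. Mpo, at 51.29 RPKM, and Prtn3, at 40.72 RPKM, were the least abundant, in this order in all 10 mice. The mRNA of every stage was present in each cochlea. With the deposited lengths, the 3 primary genes were among the 4 members of lowest level per length. Mpo and Prtn3 share bases with genes on the other strand, described below, which may also affect their counts and places.

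**Figure D1:**
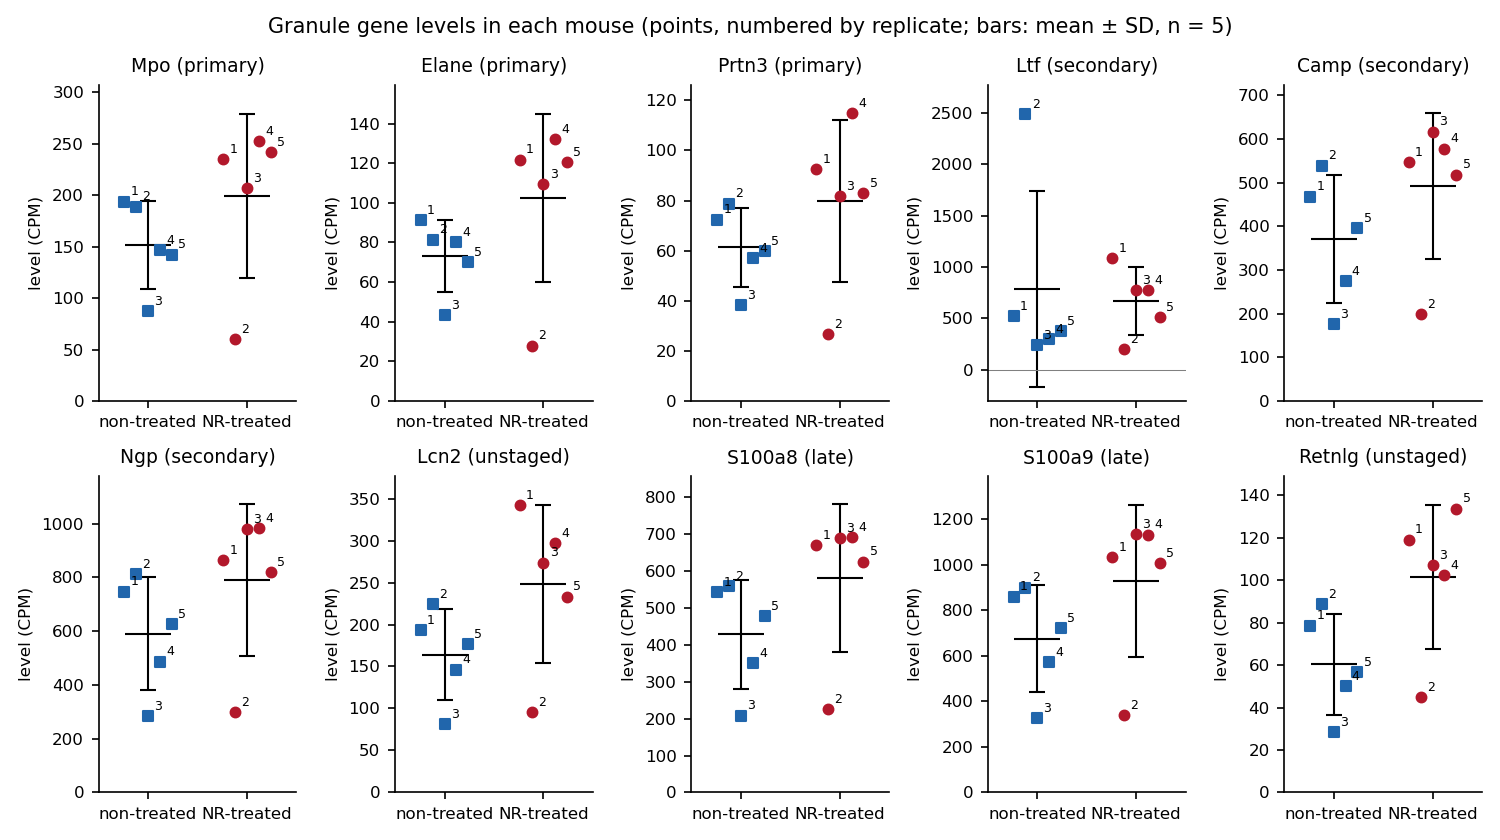
Level of each member in CPM (vertical axis, linear) in every non-treated mouse (squares) and NR-treated mouse (circles), numbered by replicate, with the mean and SD of each group of 5. NR 2 and Vehicle 3 are the 2 lowest mice in every panel, the other 4 NR-treated mice lie above most non-treated mice, and Ltf in Vehicle 2 stands at 2488 CPM.

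The primary granule genes had higher mean levels in the cochlea of NR-treated mice, but the groups overlapped and none of the 3 passed a test. Mpo (ENSMUSG00000009350) encodes myeloperoxidase, which makes hypochlorous acid from hydrogen peroxide. Its level in NR 1 to NR 5 was 235.2, 59.91, 207.3, 253.0 and 242.1 CPM, and in Vehicle 1 to Vehicle 5 it was 193.9, 188.9, 87.28, 146.6 and 142.2 CPM. Thus 4 NR-treated mice exceeded the whole non-treated group and the other one, NR 2, was below it. The log2 fold change of Mpo was 0.39, with a standard error (SE) of 0.34 and a 95% interval of -0.35 to 1.14 (unadjusted p = 0.271, adjusted p = 0.715, edgeR's quasi-likelihood test). No read was counted on Gm11505, an antisense gene that shares 5361 bases with Mpo. Unstranded counting cannot divide reads from shared bases between the 2 genes, so this count cannot show whether Gm11505 is silent. The count of Mpo itself may be affected too, which was not tested.

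Elane (ENSMUSG00000020125) encodes neutrophil elastase, a serine protease. Its levels were 121.8, 27.96, 109.5, 132.2 and 120.6 CPM in the NR-treated mice and 91.19, 81.44, 43.18, 80.02 and 70.02 CPM in the non-treated mice, with the same arrangement as Mpo. Its log2 fold change was 0.49 (SE 0.35, adjusted p = 0.668, edgeR). Prtn3 (ENSMUSG00000057729), for the related proteinase 3, had 92.43, 26.80, 81.74, 114.8 and 83.06 CPM against 72.43, 78.83, 38.16, 57.14 and 59.95 CPM. NR 2 was again below the non-treated range and the other NR-treated mice were above it. The log2 fold change of Prtn3 was 0.38 (SE 0.32, adjusted p = 0.706, edgeR). Prtn3 shares 159 bases with Plppr3 on the other strand, which had 621 to 749 reads per mouse, and unstranded counting could not divide reads from those bases.

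Of the secondary granule genes, Camp and Ngp had higher means in NR-treated mice and Ltf did not, and none of the 3 passed a test. Ngp (ENSMUSG00000032484) encodes neutrophilic granule protein, a cystatin-like protein of the specific granules. It had 863.0, 299.5, 978.2, 981.6 and 820.2 CPM in the NR-treated mice and 746.4, 810.9, 285.1, 486.7 and 625.8 CPM in the non-treated mice. All NR-treated mice but NR 2 exceeded the whole non-treated group, and NR 2 was next to Vehicle 3. Its log2 fold change was 0.42 (SE 0.33, 95% interval -0.32 to 1.15, adjusted p = 0.697, edgeR). Camp (ENSMUSG00000038357) encodes the cathelicidin antimicrobial peptide and had 546.6, 199.0, 617.0, 578.0 and 518.3 CPM against 468.0, 538.7, 176.4, 273.7 and 396.0 CPM. Here 3 NR-treated mice exceeded the whole non-treated group, since Vehicle 2 was higher than NR 5. Its log2 fold change was 0.41 (SE 0.34, adjusted p = 0.703, edgeR).

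Ltf (ENSMUSG00000032496) encodes lactoferrin, an iron-binding protein that neutrophils store in secondary granules and that gland epithelium also secretes. Its levels were 1084, 195.7, 770.8, 772.7 and 514.3 CPM in the NR-treated mice and 523.4, 2488, 241.4, 295.8 and 376.8 CPM in the non-treated mice. Vehicle 2 was higher than all other mice, and without it the other 4 non-treated mice ranged from 241 to 523 CPM. With all mice included, its log2 fold change was -0.23 (SE 0.66, 95% interval -1.69 to 1.22, adjusted p = 0.920, edgeR). Without Vehicle 2 its sign turned, to 0.90 (SE 0.41, unadjusted p = 0.0532, adjusted p = 0.482), and without NR 2 it was 0.0026.

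The late genes S100a8 and S100a9 were also higher on average in NR-treated mice without passing a test. S100a9 (ENSMUSG00000056071) had 1032, 338.9, 1134, 1131 and 1007 CPM in the NR-treated mice and 858.7, 898.6, 326.1, 572.9 and 720.9 CPM in the non-treated mice. S100a8 (ENSMUSG00000056054) had 670.8, 225.5, 689.6, 691.6 and 626.1 CPM against 544.2, 560.1, 208.1, 351.2 and 478.5 CPM. In both genes 4 NR-treated mice were above every non-treated mouse and NR 2 was near Vehicle 3. Their log2 fold changes were 0.46 (SE 0.34, adjusted p = 0.672) for S100a9 and 0.44 (SE 0.33, adjusted p = 0.675) for S100a8 in edgeR.

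Lcn2 and Retnlg had the largest fold changes of the members. Lcn2 (ENSMUSG00000026822) encodes lipocalin-2, which binds the siderophores that bacteria use to take up iron. Its levels were 342.5, 96.01, 273.7, 296.9 and 233.1 CPM in the NR-treated mice and 193.0, 224.0, 80.93, 146.2 and 176.5 CPM in the non-treated mice. NR 2 was lower than every non-treated mouse but Vehicle 3, and the other NR-treated mice were above them all. Its log2 fold change was 0.60 (SE 0.33, 95% interval -0.12 to 1.32, unadjusted p = 0.0948, adjusted p = 0.577, edgeR). Retnlg (ENSMUSG00000022651), for the secreted resistin-like protein gamma, had 119.1, 44.74, 107.0, 102.5 and 133.7 CPM against 78.58, 88.67, 28.45, 50.22 and 56.51 CPM. Its NR-treated mice other than NR 2 were again above every non-treated mouse. The log2 fold change of Retnlg was 0.75 (SE 0.32, 95% interval 0.03 to 1.46, unadjusted p = 0.0417, adjusted p = 0.499, edgeR). In an exact two-sided permutation test of the mean CPM, p was 0.0635 for Retnlg and up to 0.937, for Ltf, in the other members, where 5 mice against 5 allow a smallest p of 0.00794.

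**Figure D2:**
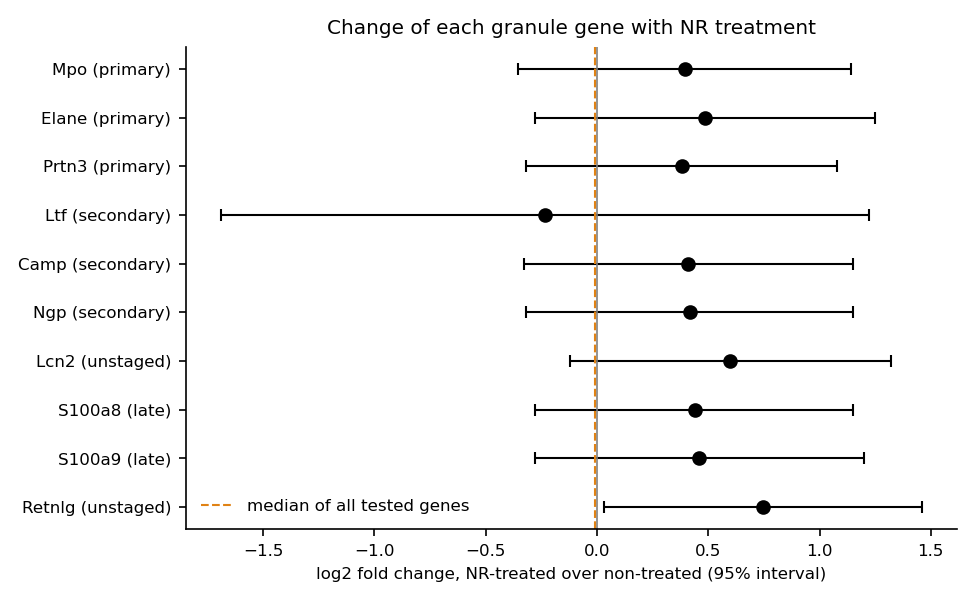
The log2 fold change of each member, NR-treated over non-treated (horizontal axis), with its 95% interval from edgeR, and the median of all tested genes as a dashed line at -0.01. Points of 9 members lie above 0, at 0.38 to 0.75, and only the interval of Retnlg leaves out 0, at 0.03.

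Over the 10 members, 9 had a log2 fold change above 0 and the median was 0.43, beside a median of -0.01 over all tested genes, 47.1% of which were above 0. At an unadjusted p of 0.05, 1 of the 10 members, Retnlg, was higher in NR-treated mice, where 4.83% of all tested genes were higher (886 genes) and 4.88% were lower (894 genes). At an adjusted p of 0.05, 0 members were called, as were 0% of all tested genes in edgeR, and DESeq2 called 102 genes, none of them (0) a member. In all 10 members the groups overlapped, while in 1.65% of all tested genes they did not. The members were read from the same libraries and varied together, so they are not 10 independent observations.

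The count of members at the unadjusted threshold depended on single mice. Without NR 2 it was 9, all but Ltf, where 7.61% of all tested genes were higher, and the log2 fold changes of the 9 ranged from 0.61 to 0.94. The smallest adjusted p of a member was then 0.215, for Elane. Without NR 1, NR 3, NR 4, NR 5, Vehicle 3, Vehicle 4 or Vehicle 5 the count was 0, and the unadjusted p of Retnlg was then 0.0612 to 0.0923 in edgeR, with 3.62% to 4.91% of all tested genes higher in these fits. Without Vehicle 1 or Vehicle 2 it stayed at 1, where 6.60% and 5.48% of all tested genes were higher.

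The levels varied from mouse to mouse in both groups. Over all 10 mice, the highest mouse had 3.32 to 4.73 times the level of the lowest in the 9 members other than Ltf, with a median of 4.22 times, and their fitted fold changes between the groups were 1.30 to 1.68 times. In all 10 members the 2 lowest mice were NR 2 and Vehicle 3, one of each group, with NR 2 the lowest for Mpo, Elane, Prtn3 and Ltf and Vehicle 3 for the other 6. The members took 0.151% and 0.153% of the counts in these 2 mice and 0.243% to 0.567% in the other 8. Their total counts, 22346972 and 24419230, were not low. The highest mouse was NR 4 for 5 members, NR 3 for 2, and NR 1, NR 5 and Vehicle 2 for 1 each.

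Camp, S100a8 and S100a9 kept nearly constant ratios to Ngp from mouse to mouse, and the other 6 members varied more. Per 100 CPM of Ngp, S100a9 had between 111 and 123 CPM, S100a8 between 69.1 and 77.7, and Camp between 56.2 and 66.4, over all 10 mice. The highest ratio was 1.11 to 1.18 times the lowest in these 3 genes, 1.53 to 1.81 times in Mpo, Elane, Prtn3, Lcn2 and Retnlg, and 5.10 times in Ltf. S100a8 was 60.8 to 66.6 per 100 CPM of S100a9. The sum of Camp and Ngp was 82.0 to 92.5 per 100 CPM of S100a8 and S100a9 together, although the sum of these late genes itself varied from 534 to 1820 CPM. The ratio of primary to late genes moved somewhat more, from 20.3 in NR 2 to 31.6 in Vehicle 3 per 100 CPM. These are the 2 mice with the lowest levels, and they held the extremes of this ratio. Retnlg was 10.4 to 16.3 per 100 CPM of Ngp in NR-treated and 9.03 to 10.9 in non-treated mice, and Lcn2 was 25.9 to 39.7 over all mice. The groups overlapped in both ratios, which were not tested.

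**Figure D3:**
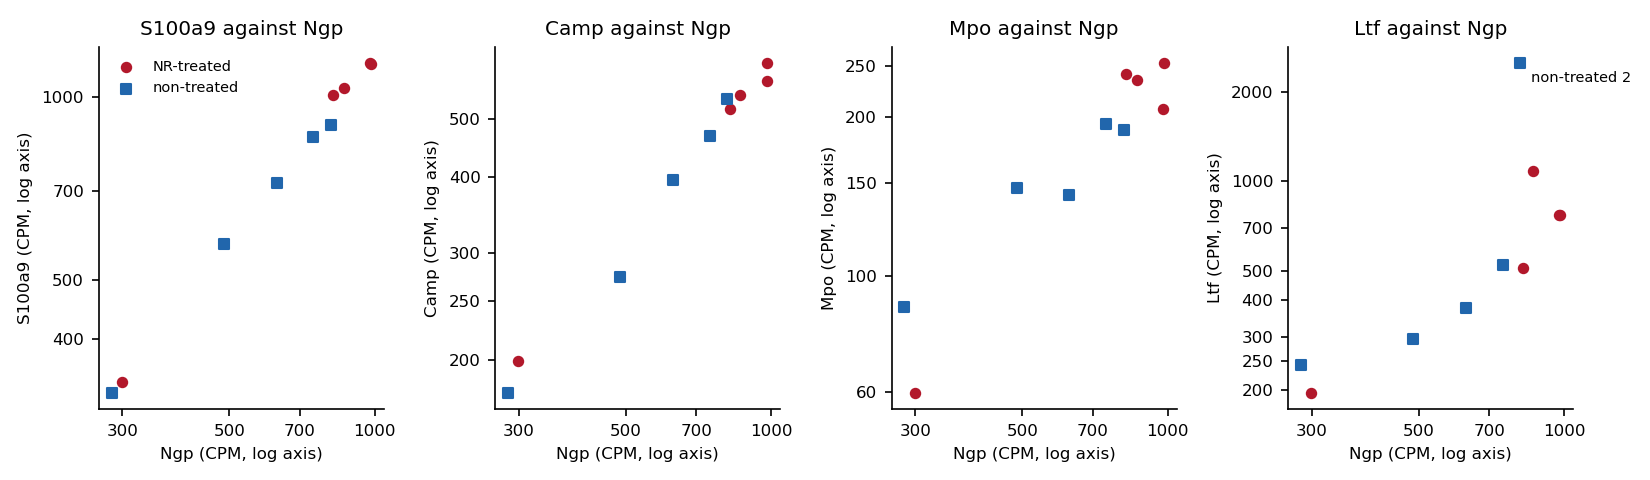
Level of S100a9, Camp, Mpo and Ltf (vertical axes, CPM, log scale) against Ngp (horizontal axis, CPM, log scale) in each NR-treated (circles) and non-treated mouse (squares). S100a9 and Camp follow Ngp closely (S100a9 is 111 to 123 per 100 CPM of Ngp), Mpo follows with more scatter, and Ltf does so except in Vehicle 2, at 307 per 100 CPM of Ngp; NR 3 and NR 4 nearly coincide in some panels.

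Correlations of log2 CPM across the 10 mice were computed for all 45 pairs of members, with permutation p-values from 100000 resamples, adjusted over the 45 pairs. Pearson's r ranged from 0.645 to 0.998 with a median of 0.933, and Spearman's rho from 0.709 to 1.00, and the adjusted p was at most 0.0461 for r and 0.0275 for rho. The closest pairs were S100a8 with S100a9 and Ngp with S100a9, both with an r of 0.998 and a rho of 0.988. In the 36 pairs without Ltf, r was 0.846 or more, and the lowest was that of Prtn3 with Retnlg. After the 2 mice farthest from the median were left out, which were NR 2 and Vehicle 3 for each gene but Ltf, r was 0.662 to 0.992 in these 36 pairs, and 35 of them had an adjusted permutation p of 0.05 or under. In the 9 pairs with Ltf, r was 0.645 to 0.804, and it depended on which mice were left out. Without NR 2 and Vehicle 3, which are farthest from the median of the other gene, it was 0.220 (Elane) to 0.675 (Camp). Without NR 2 and Vehicle 2, which are farthest from the median of Ltf, it was 0.860 (Elane) to 0.948 (Lcn2). Within the groups, after group means were subtracted, r over the 45 pairs was 0.647 to 0.998.

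In Vehicle 2, Ltf stood apart from the other secondary granule genes. Ltf was 60.2 to 126 per 100 CPM of Ngp in the other 9 mice and 307 in Vehicle 2, where Ngp (810.9 CPM) and Camp (538.7 CPM) were within the range of the other mice. Among all tested genes, the one whose log2 CPM followed the log2 ratio of Ltf to Ngp most closely over the 10 mice was Spdef (r = 0.972), a transcription factor of mucus-secreting epithelium. It had 19.1 CPM in Vehicle 2 and at most 2.99 CPM in the other mice. Next in order were Mfge8 (r = 0.955), which encodes a milk fat globule protein, and Myl9 (r = 0.953), with 117 and 108 CPM in Vehicle 2. With 1 mouse far above the rest, such a ranking favours genes that are high in that mouse. With 2 mice left out, r was 0.822 for Spdef, 0.626 for Mfge8 and 0.766 for Myl9.

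A list of 8 genes of glands and mucous epithelium was then written, after these values were seen, so it supports nothing on its own. Its sum was 40500 CPM in Vehicle 2 and 17.8 to 3820 CPM in the other mice, and 0 of its 8 genes had a log2 fold change above 0 or passed the unadjusted threshold. That direction came from Vehicle 2, since the other 4 non-treated mice had sums of 17.77 to 45.05 CPM and the 5 NR-treated mice 90.1 to 3820 CPM. Bpifb1, a secreted protein of airway epithelium, had 28400 CPM there, Dmbt1 4435 CPM, the gel-forming mucin Muc5b 4264 CPM and the lysozyme gene Lyz1 3073 CPM. Among the other mice NR 4 had the highest sum, at 3820 CPM, with 78.7 of Ltf per 100 CPM of Ngp, and NR 1 had a sum of 157 CPM with a ratio of 126. The part of these cells in the Ltf reads was not tested.

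**Figure D4:**
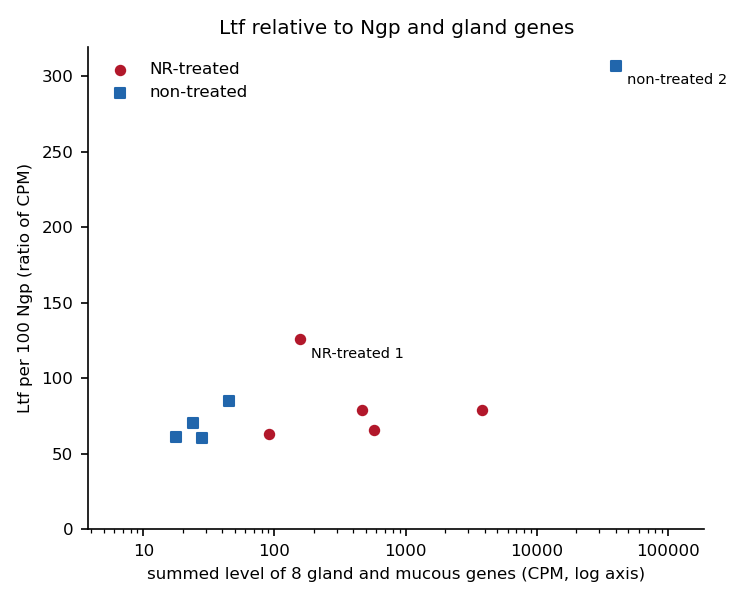
Ltf per 100 CPM of Ngp (vertical axis) against the summed CPM of 8 gland and mucous epithelium genes (horizontal axis, log scale) in each NR-treated (circles) and non-treated mouse (squares). Vehicle 2 lies at 307 and 40500 CPM, while the other 9 mice stay between 60.2 and 126 over sums of 17.8 to 3820 CPM.

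Other genes of the neutrophil program were read from lists written with earlier results of these data known. Beside the list counts below, 4.83% of all tested genes were higher and 4.88% lower at an unadjusted p of 0.05. A log2 fold change above 0 was found in 47.1% of all tested genes. The 10 other secondary and tertiary granule genes were close to the members: 9 of 10 had a log2 fold change above 0, with a median of 0.44, and 1 was higher at an unadjusted p of 0.05. That gene was Mmp9, the gelatinase of tertiary granules, at 133 ± 49.3 CPM in NR-treated and 73.0 ± 33.8 CPM in non-treated mice (SD, n = 5), a log2 difference of 0.87 (SE 0.35, adjusted p = 0.476, edgeR). The most abundant of them was Chil3, a chitinase-like protein, at 197 ± 73.5 and 176 ± 75.7 CPM, with a log2 fold change of 0.16 (adjusted p = 0.898). Of the 5 other primary granule genes 4 were above 0 and 0 passed the unadjusted threshold. Their most abundant gene, Srgn, encodes serglycin, the proteoglycan of granules in many blood cells, and was at -0.14 on the log2 scale (SE 0.07, adjusted p = 0.524, edgeR).

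Among 15 genes of mature neutrophils, 14 were above 0, with a median of 0.49, beside 47.1% of all tested genes above 0. At an unadjusted p of 0.05, 4 were higher, where 4.83% of all tested genes were higher. BC100530 and Stfa2l1, both stefin genes of a family of close copies, had 2.01 against 0.407 CPM and 1.89 against 0.748 CPM, with log2 fold changes of 2.29 (SE 0.43, adjusted p = 0.306) and 1.32 (SE 0.32, adjusted p = 0.408) in edgeR. These were the 2 genes of this list whose groups did not overlap, at levels far below those of the members. The groups did not overlap in 1.65% of all tested genes. The r of BC100530 and Stfa2l1 with Ngp was 0.366 and 0.413. In NR 2, among the 2 lowest mice for every member, they had 1.43 and 1.61 CPM, above every non-treated mouse. Reads shared among such copies make their counts uncertain. Fpr1, the formyl peptide receptor, had a mean of 5.68 CPM in NR-treated mice and a log2 fold change of 0.92 (adjusted p = 0.440), and Lrg1, a secreted glycoprotein of granules, had 27.2 against 17.7 CPM (0.62, adjusted p = 0.505, edgeR). The most abundant gene of the list, Adam8, had 89.1 against 63.5 CPM and a log2 fold change of 0.49 (adjusted p = 0.681).

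All 6 genes of the NADPH oxidase, the enzyme that supplies superoxide to the phagosome, were above 0, with a median of 0.32 and 0 past the unadjusted threshold. Cyba, its most abundant gene, had 87.7 ± 21.4 and 79.2 ± 13.2 CPM (SD, n = 5). Of 7 granulocyte transcription factors 5 were above 0 and 1 was lower at the unadjusted threshold. This was Gfi1, a repressor that promyelocytes need, at 19.6 ± 2.36 and 27.7 ± 8.59 CPM (SD, n = 5), a log2 difference of -0.50 (SE 0.19, adjusted p = 0.473, edgeR), and Gfi1 is also a gene of hair cells. Cebpa, the most abundant of them, had 38.5 against 32.1 CPM, and Cebpe, the C/EBP factor of secondary granule genes, had 15.6 against 12.0 CPM. The r with Ngp over the 10 mice was 0.967 for Cebpe, 0.921 for Spi1, 0.664 for Cebpd and 0.616 for Irf8. It was 0.584 for Cebpa, 0.179 for Cebpb and -0.683 for Gfi1.

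Signals that recruit neutrophils were low. Of 6 chemokine and growth factor genes, the 3 tested were above 0 with a median of 0.03 and 0 past the threshold, and 3 were left out by the filter, Cxcl2, Cxcl3 and Csf3, with means of at most 0.332 CPM over the 10 mice, and Cxcl1 averaged 1.21 CPM. Cxcl12, which keeps neutrophils in marrow and is made by stromal cells, had 394 ± 90.8 and 390 ± 111 CPM (SD, n = 5). Of 5 receptors of granule proteins 1 was above 0, their median was -0.05, and 1 was lower at the unadjusted threshold, Lrp2 (megalin, which takes up lipocalin-2 and lactoferrin), at 255 ± 56.8 and 413 ± 187 CPM (SD, n = 5), a log2 difference of -0.70 (SE 0.28, adjusted p = 0.476, edgeR). Lrp1 was their most abundant gene, with 589 against 627 CPM.

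The summed level of each of 21 lists was compared with Ngp across the 10 mice, with permutation p-values of Pearson's r adjusted over the 21 lists. The other secondary and tertiary granule genes followed Ngp most closely (r = 0.986, rho = 0.939, adjusted permutation p = 0.0013, r = 0.934 without NR 2 and Vehicle 3, the 2 mice farthest from the median of Ngp). The NADPH oxidase genes followed (r = 0.944, rho = 0.903, adjusted permutation p = 0.0025, r = 0.816 without 2 mice). Lists of monocytes (r = 0.897), T and NK cells (0.864), other primary granule genes (0.854), chemokines (0.846), mature neutrophil genes (0.821), megakaryocytes (0.792), eosinophils, basophils and mast cells (0.761) and granulocyte transcription factors (0.724) also had a positive r with an adjusted permutation p of 0.0252 or less. Their rho was 0.600 to 0.879, and that of the chemokines and of the megakaryocytes did not pass (adjusted permutation p = 0.088 and 0.104). Without the 2 farthest mice, r fell to between 0.368 and 0.564 for monocytes, T and NK cells, chemokines, megakaryocytes, eosinophils and transcription factors. The size of r in these lists thus depended on those mice, and r without them was not tested. The chemokine sum was nearly all Cxcl12, with a mean of 392 CPM over all mice and an r of 0.841 with Ngp. The other genes of that list had means of at most 1.97 CPM. Their r with Ngp was 0.563 for Cxcl5, 0.351 for Cxcl3, 0.157 for Csf3, 0.11 for Cxcl1 and -0.239 for Cxcl2.

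Erythroid genes had no r with Ngp that passed the test (r = 0.203, rho = 0.0788, adjusted permutation p = 0.567). Without NR 2 and Vehicle 3 their r with Ngp was 0.374. NR 2 had 11400 CPM of erythroid genes, above the median of its group of 9180 CPM, and Vehicle 3 had 7650 CPM, while the neutrophil members were lowest in both. Of the 9 erythroid genes 0 were above 0, with a median of -0.21, and 0 passed the unadjusted threshold. Their most abundant gene, Hbb-bs, had 4680 ± 1210 and 4970 ± 2450 CPM (SD, n = 5). B lineage genes (r = 0.453, rho = 0.333, adjusted permutation p = 0.235) and proliferation genes (r = 0.314, rho = 0.333, adjusted permutation p = 0.421) had no r with Ngp that passed the test either. In these lists 1 of 13 and 0 of 6 genes had a log2 fold change above 0, with medians of -0.32 and -0.36 and 0 genes past the unadjusted threshold in both. Jchain was the most abundant B lineage gene, at 57.1 against 62.7 CPM, and Mki67 the most abundant proliferation gene, at 149 against 207 CPM.

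Cochlear genes had lower sums in mice with more Ngp. Their sum had an r of -0.853 with Ngp (rho = -0.782, adjusted permutation p = 0.011), which was -0.862 without the 2 farthest mice. The 2 mice with the lowest neutrophil members, NR 2 and Vehicle 3, had the highest cochlear sums of their groups, 6240 and 8330 CPM. In the comparison of the groups 0 of 16 cochlear genes were above 0, with a median of -0.59. At the unadjusted threshold 8 were lower, where 4.88% of all tested genes were lower. The 4 with the smallest p were Otos (log2 fold change -0.73, adjusted p = 0.423), Tectb (-1.43, adjusted p = 0.476), Tecta (-1.24, adjusted p = 0.476) and Gjb2 (-0.52, adjusted p = 0.479, edgeR). The most abundant, Coch, had 2610 ± 571 and 2980 ± 799 CPM (SD, n = 5). The receptors of granule proteins had an r of -0.592 with Ngp (rho = -0.685, adjusted permutation p = 0.0936 for r and 0.0605 for rho), and the sex genes an r of -0.620 (rho = -0.842, adjusted permutation p = 0.0936 for r and 0.013 for rho). Without the same 2 mice these were -0.897 and -0.963. The sex genes summed to 179 to 210 CPM over all mice, a narrow range.

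**Figure D5:**
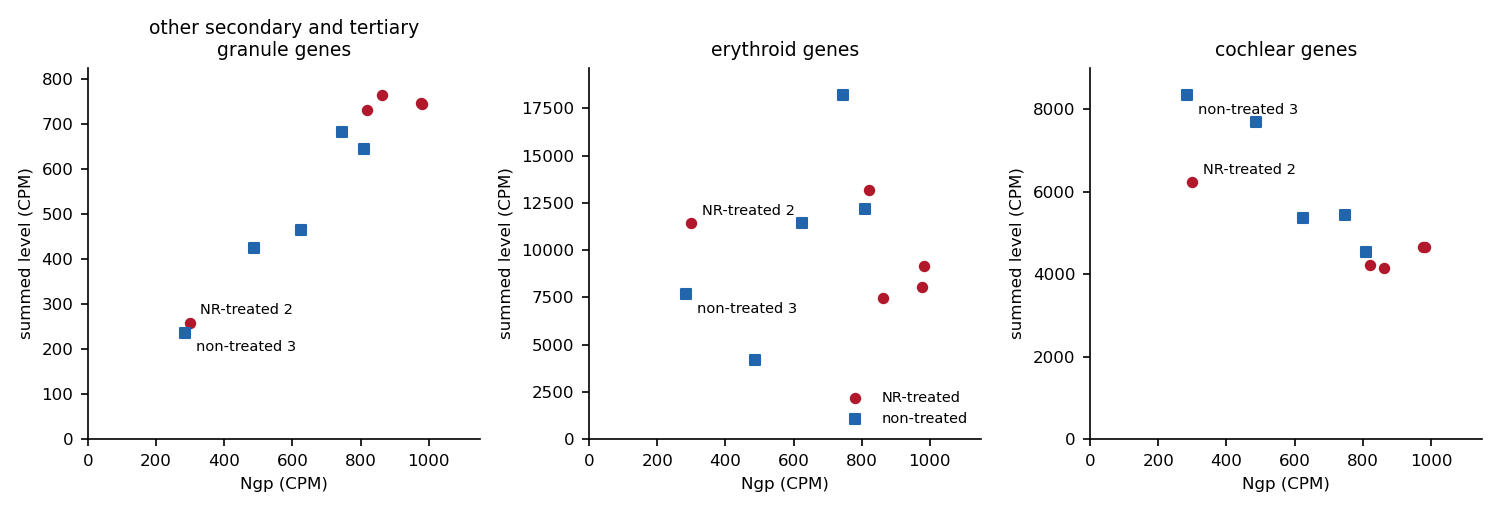
Summed level of the other secondary and tertiary granule genes, the erythroid genes and the cochlear genes (vertical axes, CPM) against Ngp (horizontal axis, CPM) in each NR-treated (circles) and non-treated mouse (squares). Granule genes rise with Ngp (r = 0.986), erythroid genes scatter (r = 0.203) and cochlear genes fall (r = -0.853), with NR 2 and Vehicle 3 at the left of each panel.

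Some markers of bone, and most of those of muscle and fat, had higher levels in the NR-treated group at the unadjusted threshold. Of all tested genes, 4.83% were higher at that threshold. Over the 21 lists 0 genes had an adjusted p of 0.05 or under in edgeR. Bone genes summed to 629 to 2300 CPM in NR-treated and 390 to 1050 CPM in non-treated mice, and 8 of 12 were above 0, with a median log2 fold change of 0.25. Of these, 3 were higher at the unadjusted threshold: Col1a1, the main collagen of bone, with 819 ± 479 and 244 ± 141 CPM (SD, n = 5), and the osteoclast genes Ctsk, with 91.9 against 47.7 CPM, and Acp5, with 122 against 56.9 CPM. The osteocyte genes Dmp1, Sost and Mepe had log2 fold changes of -0.10, -0.15 and -0.22. The r of the bone sum with Ngp was 0.645 (rho = 0.745, adjusted permutation p = 0.08 for r and 0.0338 for rho). Skeletal muscle genes, with 5 of 6 higher at the unadjusted threshold, summed to 8.09 to 789 CPM and 5.62 to 64.1 CPM, and adipocyte genes, with 4 of 5 tested genes higher, to 67.0 to 195 CPM and 16.9 to 62.7 CPM. The muscle genes Acta1, Ckm, Ttn and Tnnt3 had log2 fold changes of 2.92 to 4.75 (adjusted p = 0.420 to 0.423, edgeR). The adipocyte genes Cidec, Plin1, Cfd and Fabp4 had 1.34 to 3.05 (adjusted p = 0.224 to 0.437, edgeR). The paper, which used DESeq2, names Cidec and Plin1 among its top genes at an adjusted p of 0.05 or under. It also reports that both rose with NR by RT-PCR. In NR 2, where the members were lowest, the adipocyte sum was the highest of all mice, at 195 CPM. Neither list had an r with Ngp that passed the test (r = 0.479 and 0.299, rho = 0.552 and 0.467, adjusted permutation p = 0.189 and 0.421). Without NR 2 and Vehicle 3, r was 0.572 for muscle, 0.930 for the adipocyte genes and 0.743 for bone. Macrophage genes, with 9 of 9 above 0, a median log2 fold change of 0.18 and 0 past the threshold, had an r of 0.559 (rho = 0.600, adjusted permutation p = 0.141), with C1qa the most abundant at 96.4 against 87.7 CPM. The part of these tissues in the levels of the members was not tested.

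The remaining lists of blood cells had 0 genes past the unadjusted threshold. Of 4 monocyte genes 3 were above 0, led by Ly6c2 at 44.6 against 38.6 CPM, as were 4 of 6 T and NK cell genes, of which Cd4 was the most abundant at 5.20 against 6.84 CPM. Of 5 tested genes of eosinophils, basophils and mast cells 4 were above 0, led by Prg2 at 5.56 against 4.58 CPM, and of 5 tested megakaryocyte genes 0 were above 0, led by Ppbp at 103 against 127 CPM.

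The genes most like the members across the mice were found by the Pearson r of their log2 CPM with the mean standardized log2 CPM of the 10 members, over 18329 tested genes and 10 mice, as a description. Cd177, a surface protein of neutrophils that binds proteinase 3, came first with an r of 0.992. Its levels were 121, 29.9, 98.1, 109 and 92.9 CPM in the NR-treated mice and 73.8, 83.6, 30.2, 52.3 and 67.2 CPM in the non-treated mice, in which NR 2 and Vehicle 3 were again lowest. Haptoglobin (Hp, r = 0.989), which myelocytes store in specific granules, came second. They were followed by the RNA-binding protein gene Lin28a (0.988), the maltase-glucoamylase gene Mgam (0.987), Cd300lf (0.986), Arhgdib (0.986), the Src family kinase gene Fgr (0.984), Rac2 (0.984), Wfdc21 (0.980) and Alox5ap (0.980), which encodes an activator of leukotriene synthesis. Outside the members, 142 genes had an r of 0.9 or more. None of the 10 named genes passed the unadjusted threshold between the groups (0 of 10), and their log2 fold changes were 0.25 to 0.60, with adjusted p-values of 0.567 to 0.758 in edgeR.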

How the data were processed

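RNA-seq of the cochlea of 10 mice was analysed, 5 NR-treated and 5 non-treated. Libraries were made with a poly(A) method by Novogene. The deposited values are raw counts of reads on each gene, made by the authors with fastp, STAR (2.6.1d) on mm10 and featureCounts (1.5.0) in its default mode, without strand. The annotation release is not given in the sources used here. Each file holds 1 mouse. Counts were tested with edgeR (4.0.16, R 4.3.3) by glmQLFit and glmQLFTest after filterByExpr and TMM, without covariates, with Benjamini-Hochberg adjustment over 18329 genes. The log2 CPM had a prior count of 2. Exact permutation tests enumerated every labeling of the mice. Alternatives were DESeq2 (1.42.0), its size factors, other filters, a robust fit, the replicate number as a block and leaving out each mouse. The fits were tested on simulated data. No 2 libraries had counts within sampling noise of each other. The p-values of the group comparison set the difference between the groups against the variation between these mice. Those of the correlations concern association across the same mice.

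The members and the 20 gene lists were chosen with earlier results of these data known, and the gland list after seeing the values. Named genes are the 10 members, in each list the genes at an unadjusted p of 0.05 or under (at most 4) and the most abundant one, the 10 genes most like the members, and genes that a check turns on.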

Additional observations from a re-analysis of the deposited data

Results flagged for a closer look

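In 20 groups of 5 mice (10 members in each of 2 treatment groups), the gap between the most extreme mouse and its nearest neighbour was compared with the range of the group by Dixon's criterion, and 7 exceeded its 95% critical value of 0.71. Chance flags about 1 in 20 such groups, and the members are not independent, so that 1 mouse can be counted several times. NR 2 was low for 6 members. Its level was 59.91 CPM for Mpo, where the other NR-treated mice had 207 to 253 CPM, and 27.96 CPM for Elane (others 109 to 132 CPM). It was 199.0 CPM for Camp (others 518 to 617 CPM) and 299.5 CPM for Ngp (others 820 to 982 CPM). For S100a8 it was 225.5 CPM (others 626 to 692 CPM), and for S100a9 338.9 CPM (others 1010 to 1130 CPM). Vehicle 2 was high for Ltf, at 2488 CPM, where the other non-treated mice had 241 to 523 CPM.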

How the results depend on the processing

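The log2 fold changes of the 9 members other than Ltf were above 0 in all 144 values from 16 alternatives, between 0.22 and 0.94, with 0 of them at an adjusted p of 0.05 and a smallest adjusted p of 0.215. That of Ltf, -0.23, turned to 0.47 with the replicate number as a block, to 0.0026 without NR 2 and to 0.90 without Vehicle 2, over a range of -0.48 to 0.90 when each mouse was left out. The replicate block, which the numbers do not justify as a pairing (correlations of same-numbered deviations from -0.22 to 0.17, with 2 of 10 samples closest to their own number), gave 0 members at an unadjusted p of 0.05, and 879 higher and 776 lower genes with 0 called after adjustment. Leaving out 1 mouse gave 0 to 9 members at that threshold, 0 to 1 genes called, 669 to 1414 higher and 484 to 1059 lower genes. DESeq2 called 102 genes, and testing all genes with at least 1 read gave 1414 higher genes; the cause was not tested. Pairs of members past the adjusted threshold numbered 45 with group means subtracted. They numbered 41 without the 2 mice farthest from the median of the first gene of each pair. Of these, 35 were pairs without Ltf and 6 were pairs with Ltf, whose r depended on which mice were left out. Levels without TMM moved by less than 1 SD in all 20 group means. Each member had at least 599 reads in every library.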
